A study of Mus musculus with 6 samples.

Results

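Podocytes are the epithelial cells that cover the capillaries of the kidney glomerulus and form its filter. The 28 genes described here encode proteins of the podocyte slit diaphragm, its surface and its actin cytoskeleton, with the transcription factors of the cell. They were chosen by gene symbol, all 28 were matched to an Ensembl identifier among the 24749 in the table, and all 28 had a mean above 0.5 FPKM (fragments per kilobase of transcript, adjusted for depth, the unit of the deposited table) in each genotype. RNA came from whole dissected mouse kidneys of stage E15.5 and mixed strain. Knockout kidneys, in 3 libraries, carried Foxd1cre with floxed alleles of Yap and Taz (written Foxd1cre; Yapc/c;Tazc/c), and the wild-type kidneys, in 3 libraries, are labelled Cre negative. The labels do not say whether the wild-type animals carried floxed alleles, or whether libraries of a genotype came from separate embryos, and p-values measure the spread between libraries only. Foxd1 is known as a gene of stromal progenitors, and its transcripts have also been described in developing podocytes. In which cells Cre had acted was not measured.

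Podocytes arise from the proximal end of the S-shaped body, downstream of nephron progenitors. Their interlocking foot processes are held on the glomerular basement membrane by an actin cytoskeleton and are bridged by the slit diaphragm, a junction built of nephrin and its relatives. WT1, LMX1B and the forkhead factors FOXC1 and FOXC2 act upstream of many of these structural genes. At E15.5 the kidney holds glomeruli at several stages of maturity together with progenitors that already transcribe some of the same genes, among them Wt1.

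Of the floxed genes, Wwtr1, which encodes TAZ, measured 13.5, 12.8 and 12.2 FPKM in knockout libraries 1 to 3, against 20.2, 17.7 and 18.5 FPKM in wild-type libraries 1 to 3, and was called lower (log2 change -0.51, limma adjusted p = 0.0235). The exact permutation p of 0.1 is the smallest possible with 3 libraries each. That call was lost without knockout library 1, 2 or 3 or wild-type library 2 (adjusted p = 0.0682, 0.115, 0.117 and 0.0701). Yap1 was not called (log2 change -0.16, adjusted p = 0.378, exact permutation p = 0.2). Depth was approximated from the lowest values at 12900000 to 15700000 fragments per library, and on that estimate the least abundant members, Tdrd5 and Trpc6, rested on about 88 fragments each per library. Wild-type library 3 stood apart from the rest. Th and Tubb3, markers of nerve and chromaffin cells, reached 17.8 and 31.1 FPKM there and at most 0.0918 and 1.21 FPKM in the other 5 libraries. All 7 proximal tubule markers had their lowest value in it, against 14.7% of all genes tested.

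The summed level of the 28 podocyte genes was 466 to 497 FPKM in knockout libraries and 454 to 495 FPKM in wild-type libraries, so the genotypes overlapped. Of the 28 members 0 were called by limma at an adjusted p under 0.05, against 0.734% of the 16899 genes tested. Without adjustment, 8 members had a limma p under 0.05, of which 4 were higher and 4 lower in knockout. Among all genes tested 9.14% were higher and 6.94% lower at that level, 16.1% in all. The genotypes did not overlap for 9 members, 4 higher and 5 lower in knockout, against 24.3% of all genes (12.5% higher and 11.8% lower). Both counts make up a larger share of the 28 members than of all genes, a difference that was not tested. The median log2 change over the 28 members was -0.01, beside -0.00 over all genes tested, with 14 members above 0 and 14 below. No member passed an absolute log2 change of 0.48, and for 21 members the 95% confidence interval lay inside 0.5 in either direction, on the scale of log2(FPKM + 1). Without wild-type library 3 the count of called members was again 0 (0.87% of all genes were called). Then 10 members lay below an unadjusted p of 0.05 (19.3% of all genes) and 15 were without overlap (39.4% of all genes, with 3 libraries against 2). In whole-kidney RNA a smaller number of podocytes and less RNA per podocyte cannot be told apart, and opposite differences in the pair would offset each other.

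**Figure D1:**
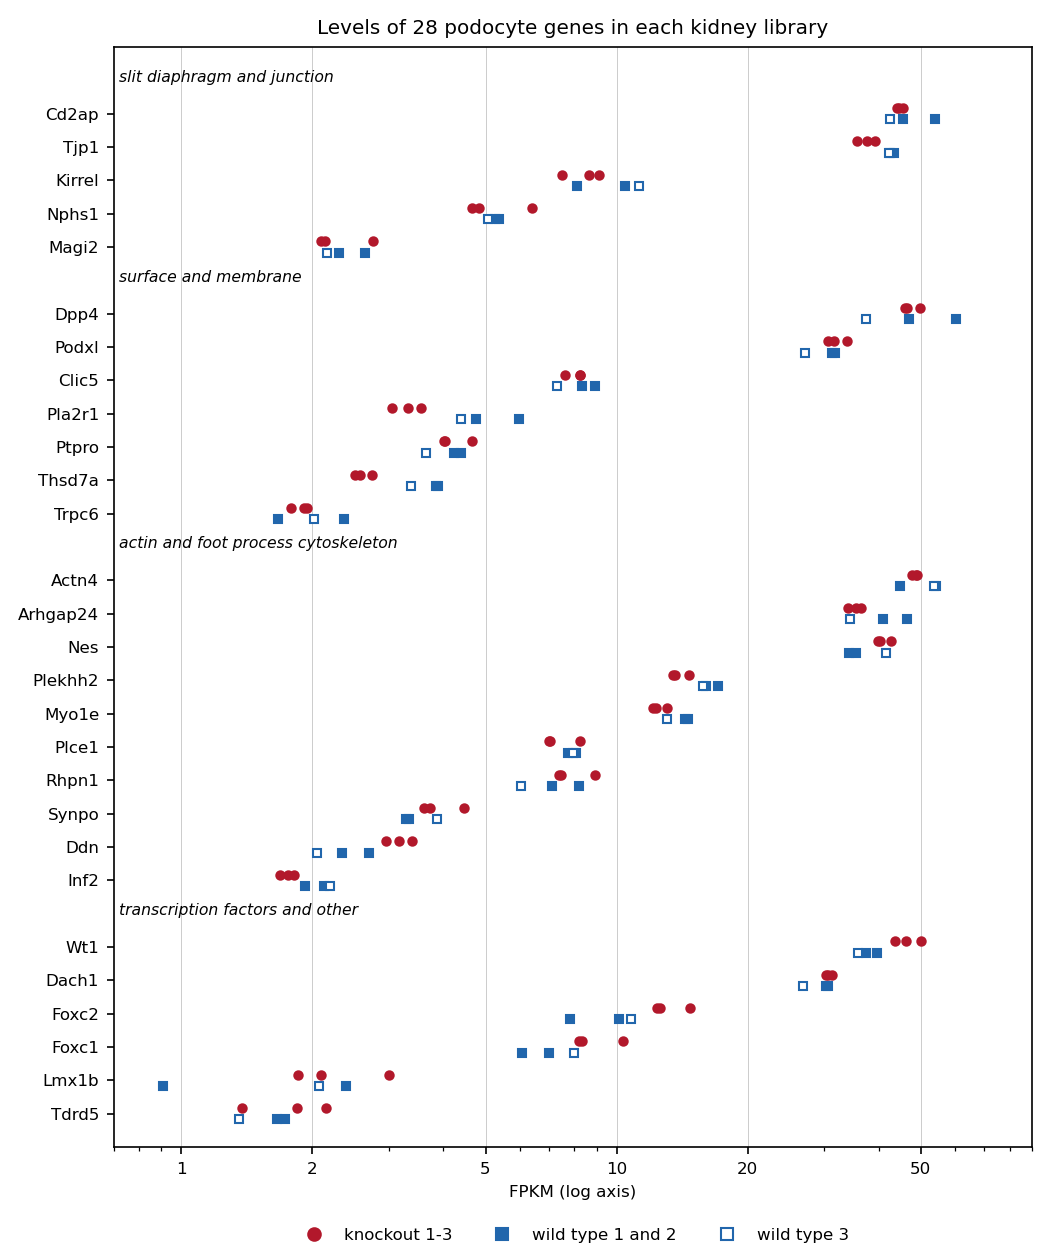
FPKM of the 28 podocyte genes in each library, on a log axis, grouped by role and ordered within a role by wild-type mean. Red circles are knockout libraries, blue squares wild-type libraries, with wild-type library 3 open. For 19 genes the 2 colours overlap.

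Levels per transcript length spread widely among the members. In wild-type kidneys 9 members averaged at least 20 FPKM, namely Actn4, Dpp4, Cd2ap, Tjp1, Arhgap24, Wt1, Nes, Podxl and Dach1. Most of these are also transcribed outside podocytes in the embryonic kidney. A further 10 lay between 5 and 20 FPKM. The remaining 9 lay under 5 FPKM and included genes known for podocytes, such as Ptpro, Synpo, Magi2 and Ddn.

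The slit diaphragm itself showed no called difference. Nphs1 encodes nephrin, the adhesion protein that spans the slit (chromosome 7, 30458315 to 30487223, GRCm38). It measured 6.40, 4.84 and 4.66 FPKM in knockout libraries, against 5.38, 5.25 and 5.05 FPKM in wild-type libraries. Knockout library 1 lay above and knockout libraries 2 and 3 below all wild-type libraries. Its log2 change was 0.01 (95% confidence interval -0.26 to 0.27, limma adjusted p = 0.983). Nphs1 overlaps the opposite-strand gene Nphs1os, which averaged 0.490 FPKM in knockout and 0.337 FPKM in wild-type kidneys.

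Kirrel encodes NEPH1, the nephrin partner in the slit. It measured 9.11, 8.65 and 7.47 FPKM in knockout libraries, against 8.13, 10.5 and 11.3 FPKM in wild-type libraries, with overlap (log2 change -0.21, interval -0.50 to 0.08, limma adjusted p = 0.443, and -0.12 without wild-type library 3). Magi2, a scaffold under the slit, averaged 2.33 ± 0.366 FPKM in knockout and 2.37 ± 0.250 FPKM in wild-type kidneys (SD, n = 3 each). Cd2ap, the adaptor that links nephrin to actin, averaged 44.7 ± 0.668 FPKM in knockout and 47.3 ± 5.97 FPKM in wild-type kidneys (SD, n = 3 each), with most of the wild-type spread from library 1 at 54.0 FPKM. Their log2 changes were -0.02 for Magi2 and -0.07 for Cd2ap, and neither was called.

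Tjp1 encodes ZO-1, the tight junction scaffold that also sits at the slit and is used by every epithelium of the kidney (chromosome 7, 65296165 to 65527781). It measured 39.2, 35.8 and 37.7 FPKM in knockout libraries, against 42.5, 43.3 and 42.3 FPKM in wild-type libraries. All knockout values lay below all wild-type values, at 88.0% of the wild-type mean, and the log2 change of -0.18 (SE 0.05) did not pass the test (limma adjusted p = 0.182). It was -0.19 without wild-type library 3. Of the 5 slit diaphragm and junction genes, 1 lay above 0 and 4 below, with a median log2 change of -0.07.

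The surface and membrane genes held the pair of members with the lowest values relative to wild type. Pla2r1 encodes the phospholipase A2 receptor and Thsd7a a thrombospondin-repeat membrane protein, and both are known in human kidneys as podocyte antigens of autoantibodies in membranous nephropathy. Whether podocytes of these mouse kidneys transcribed them was not measured. Pla2r1 (chromosome 2, 60417543 to 60553308) measured 3.56, 3.32 and 3.05 FPKM in knockout libraries, against 5.97, 4.76 and 4.39 FPKM in wild-type libraries, so that the genotypes did not overlap. The knockout mean was 65.7% of wild type and the log2 change -0.48 (SE 0.12, interval -0.75 to -0.21, limma adjusted p = 0.135). Thsd7a (chromosome 6, 12311610 to 12749410) measured 2.74, 2.57 and 2.51 FPKM in knockout libraries, against 3.84, 3.89 and 3.36 FPKM in wild-type libraries, again without overlap. At 70.5% of the wild-type mean, its log2 change was -0.38 (SE 0.09, interval -0.59 to -0.17, limma adjusted p = 0.130). Without wild-type library 3 the log2 changes were -0.56 for Pla2r1 and -0.43 for Thsd7a, with adjusted p of 0.0839 and 0.0867, the smallest that each reached over 14 alternative settings. Stromal markers differed between the same libraries. Of 8 stroma genes 6 lay below 0, Ntn1 and Col3a1 were called lower (Col3a1 under 7 of 14 alternatives, lost without any 1 knockout library or wild-type library 2, adjusted p between 0.0651 and 0.118), and the sum of all 8 was 444 to 476 FPKM in knockout and 555 to 665 FPKM in wild-type libraries. Before adjustment 5 were lower and 1 higher at a limma p under 0.05 (6.94% and 9.14% of all genes tested). Counts without overlap were also 5 lower and 1 higher (11.8% and 12.5% of all genes). The median log2 change was -0.55, and -0.42 without wild-type library 3, which held the highest of the 6 values for 6 of these genes. The highest stromal sum was that of wild-type library 3, which had the lowest wild-type values of both Pla2r1 and Thsd7a. That order rests on 1 library, and the part of stromal RNA in these values was not tested.

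The promoters of both genes are shown because their transcripts were the lowest relative to wild type. They are RefSeq sequences of the build GRCm38.p6, from 250 bases before to 50 bases after the annotated start, read 5′ to 3′ on the gene's own strand, which is the minus strand for both (chr2:60553259-60553558 and chr6:12749204-12749503). Both strands were searched for GGAATG, the core motif of the TEAD factors through which YAP and TAZ act, for the forkhead motif GTAAACA and for the homeodomain motif TAATTA. Neither window holds one, so no base is in capitals.
Pla2r1: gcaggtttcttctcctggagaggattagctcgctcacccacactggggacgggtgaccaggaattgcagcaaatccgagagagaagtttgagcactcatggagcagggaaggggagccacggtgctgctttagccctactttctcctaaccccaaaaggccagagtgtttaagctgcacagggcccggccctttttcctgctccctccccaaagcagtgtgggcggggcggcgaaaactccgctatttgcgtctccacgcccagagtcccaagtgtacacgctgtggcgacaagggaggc
Thsd7a: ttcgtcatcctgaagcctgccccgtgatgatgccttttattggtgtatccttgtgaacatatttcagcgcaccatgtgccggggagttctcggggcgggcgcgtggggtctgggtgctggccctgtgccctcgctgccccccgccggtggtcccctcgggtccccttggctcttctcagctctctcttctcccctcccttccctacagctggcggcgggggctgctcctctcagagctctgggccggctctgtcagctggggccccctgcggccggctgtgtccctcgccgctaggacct

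The other surface genes overlapped between genotypes. Podxl encodes podocalyxin, the sialomucin of the apical foot process membrane, which endothelium makes too. It measured 33.8, 31.5 and 30.6 FPKM in knockout libraries, against 31.3, 31.8 and 27.0 FPKM in wild-type libraries (log2 change 0.09, interval -0.08 to 0.26, limma adjusted p = 0.590, and 0.019 without wild-type library 3). Ptpro, the receptor tyrosine phosphatase GLEPP1, averaged 4.24 ± 0.370 FPKM in knockout and 4.09 ± 0.388 FPKM in wild-type kidneys. Clic5, a chloride intracellular channel protein that binds ezrin in foot processes, averaged 8.02 ± 0.365 FPKM in knockout and 8.19 ± 0.817 FPKM in wild-type kidneys (SD, n = 3 each). Both of their intervals stayed within 0.3 of 0 on the log2 scale.

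Trpc6 encodes a calcium-permeable channel of the slit region and averaged 1.88 ± 0.0877 FPKM in knockout and 2.02 ± 0.346 FPKM in wild-type kidneys (SD, n = 3 each), a log2 change of -0.06. Dpp4, a membrane peptidase that proximal tubules carry on their brush border, measured 49.6, 46.5 and 46.1 FPKM in knockout libraries, against 60.1, 46.9 and 37.5 FPKM in wild-type libraries. Its wild-type values were ordered like the summed proximal tubule markers, which were 69.0 to 126 FPKM in wild-type libraries with the lowest in library 3, and 92.6 to 109 FPKM in knockout libraries. In knockout the orders differed, with the markers lowest in library 2 and Dpp4 lowest in library 3. Other members, such as Cd2ap, Clic5 and Arhgap24, had the same wild-type order as Dpp4. The log2 change of Dpp4 was 0.00 with an interval from -0.40 to 0.40, and -0.16 without wild-type library 3.

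**Figure D2:**
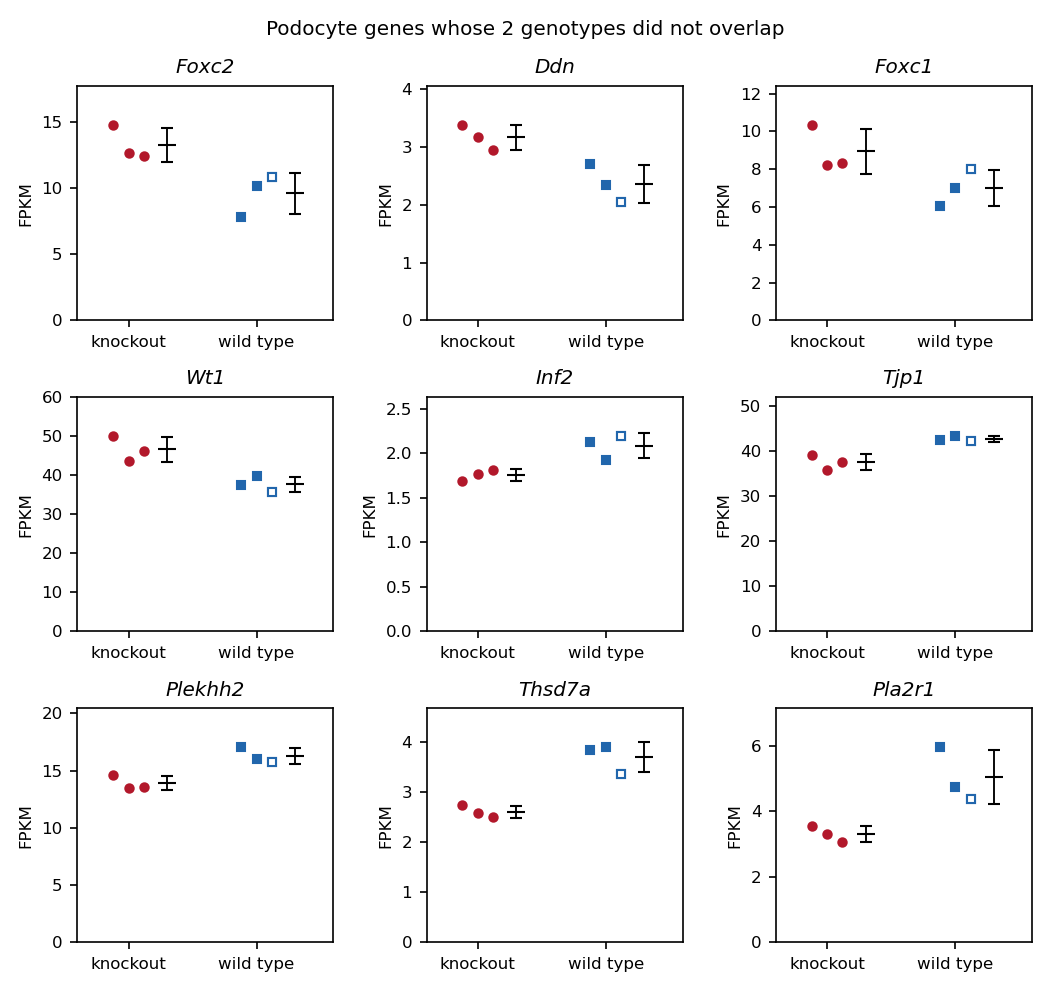
FPKM in each library of the 9 podocyte genes whose knockout and wild-type values did not overlap, with axes from 0. Points run from library 1 to 3 within a genotype, wild-type library 3 is open, and black bars give mean and SD. Foxc2, Ddn, Foxc1 and Wt1 are higher in knockout, and Inf2, Tjp1, Plekhh2, Thsd7a and Pla2r1 lower. None was called.

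The actin cytoskeleton of the foot process was divided, with 4 genes above 0 and 6 below (median log2 change -0.07). Ddn encodes dendrin, a slit-associated protein that can move to the nucleus (chromosome 15, 98803777 to 98809490). It measured 3.38, 3.17 and 2.95 FPKM in knockout libraries, against 2.70, 2.34 and 2.05 FPKM in wild-type libraries. The genotypes did not overlap, and the log2 change of 0.31 (SE 0.10, limma adjusted p = 0.221) was 0.24 without wild-type library 3. The exons of Ddn overlap B130046B21Rik on the opposite strand, which measured 3.45, 3.15 and 2.37 FPKM in knockout and 2.32, 2.60 and 2.41 FPKM in wild-type libraries. The labels do not state whether the libraries kept strand, so reads of these overlapping genes may be mixed.

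Synpo, the synaptopodin gene, encodes an actin-bundling protein of mature foot processes (chromosome 18, 60593973 to 60660142). It measured 4.46, 3.61 and 3.73 FPKM in knockout libraries, against 3.28, 3.33 and 3.88 FPKM in wild-type libraries, and overlapped only through wild-type library 3 (log2 change 0.13, interval -0.11 to 0.37, limma adjusted p = 0.569). The log2 change of Synpo was 0.19 without wild-type library 3 and 0.057 without knockout library 1. Rhpn1, a protein known from podocyte foot processes, measured 8.92, 7.46 and 7.39 FPKM in knockout libraries, against 8.20, 7.09 and 6.03 FPKM in wild-type libraries (log2 change 0.14, and 0.04 without wild-type library 3). Nes encodes the intermediate filament nestin, which podocytes share with endothelium and nerve. It measured 42.6, 40.0 and 40.3 FPKM in knockout libraries, against 34.2, 35.5 and 41.5 FPKM in wild-type libraries. The high wild-type value came from library 3, the library with nerve markers, and without it the log2 change was 0.23 in place of 0.15 (limma adjusted p = 0.121 without it and 0.40 with it). The part of nerve RNA in this value was not tested.

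The other 6 cytoskeletal genes had a knockout mean below the wild-type mean, and none was called. Plekhh2, a podocyte-enriched protein of the cell cortex (chromosome 17, 84511895 to 84622138), measured 14.6, 13.5 and 13.6 FPKM in knockout libraries, against 17.1, 16.0 and 15.8 FPKM in wild-type libraries. The genotypes did not overlap, and the log2 change was -0.21 (SE 0.06, limma adjusted p = 0.184). Inf2, a formin that assembles actin filaments (chromosome 12, 112588784 to 112615557), measured 1.69, 1.76 and 1.82 FPKM in knockout libraries, against 2.13, 1.93 and 2.19 FPKM in wild-type libraries. These did not overlap either, yet the interval of its log2 change of -0.16 ran from -0.37 to 0.05.

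Arhgap24, a Rac-inactivating protein, measured 36.4, 34.0 and 35.5 FPKM in knockout libraries, against 46.4, 40.8 and 34.4 FPKM in wild-type libraries. Its log2 change of -0.18 was -0.29 without wild-type library 3 (limma adjusted p = 0.115) and -0.08 without wild-type library 1. Myo1e, a membrane-bound myosin, averaged 12.5 ± 0.479 FPKM in knockout and 14.0 ± 0.851 FPKM in wild-type kidneys (SD, n = 3 each; log2 change -0.15, adjusted p = 0.326). Actn4, the actin cross-linker alpha-actinin-4, averaged 48.5 ± 0.694 FPKM in knockout and 50.8 ± 5.26 FPKM in wild-type kidneys (SD, n = 3 each), a log2 change of -0.06. Plce1, a phospholipase C needed for glomerular maturation in humans, averaged 7.41 ± 0.705 FPKM in knockout and 7.91 ± 0.173 FPKM in wild-type kidneys (SD, n = 3 each), a log2 change of -0.09.

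A RefSeq promoter window of the same 300 bases was found for 21 of the 28 members. The TEAD motif GGAATG or its reverse complement CATTCC was in a window of 6 of them, Actn4, Dach1, Dpp4, Inf2, Magi2 and Plekhh2. Some members have more than 1 window. Counted by window, 7 of 23 member windows held it, against 14.7% of all 32851 windows, a difference that was not tested. Inf2 enters that count more than once, through overlapping windows that hold the same matches. TAATTA was found for 1 member, Magi2, and in 5.29% of all windows. The TEAD and TAATTA matches of Magi2 lie in its window chr5:19907268-19907567 and not in chr5:19226796-19227095. GTAAACA was found for 0 members and in 3.65% of all windows. The windows of Inf2 (chr12:112588517-112588816, plus strand) and Plekhh2 (chr17:84511645-84511944, plus strand) are shown because they are the TEAD-matched members whose genotypes did not overlap. Capitals mark GGAATG or CATTCC, which lies 184, 156 and 147 bases before the start of Inf2 and 245 bases before the start of Plekhh2. From the start of another Inf2 window (chr12:112588534-112588833) the same matches lie 201, 173 and 164 bases before. A match describes the letters and not a bound site.
Inf2: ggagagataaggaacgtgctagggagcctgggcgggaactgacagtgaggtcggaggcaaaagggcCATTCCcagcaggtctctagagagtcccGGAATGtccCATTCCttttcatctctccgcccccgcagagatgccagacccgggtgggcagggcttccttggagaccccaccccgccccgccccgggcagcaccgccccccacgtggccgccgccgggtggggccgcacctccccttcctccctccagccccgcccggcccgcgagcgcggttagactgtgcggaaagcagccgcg
Plekhh2: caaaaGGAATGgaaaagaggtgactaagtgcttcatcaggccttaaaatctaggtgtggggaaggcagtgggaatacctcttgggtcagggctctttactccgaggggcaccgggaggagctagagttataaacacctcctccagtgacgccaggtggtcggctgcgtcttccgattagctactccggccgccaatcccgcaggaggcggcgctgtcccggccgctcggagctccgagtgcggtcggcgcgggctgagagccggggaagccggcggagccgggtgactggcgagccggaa

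The 6 genes grouped as transcription factors and Tdrd5 all lay above 0, with a median log2 change of 0.29 (0.17 without knockout library 1 and 0.19 without wild-type library 1), and Wt1 and the forkhead pair carried the clearest differences. Wt1, the zinc finger factor that defines podocytes and is already present in nephron progenitors (chromosome 2, 105126529 to 105173616), measured 50.04, 43.6 and 46.3 FPKM in knockout libraries, against 37.4, 39.7 and 35.8 FPKM in wild-type libraries. The genotypes did not overlap, and the knockout mean was 124% of the wild-type mean. The log2 change was 0.30 (SE 0.07, interval 0.14 to 0.46) and Wt1 had the smallest limma adjusted p of any member with all libraries (adjusted p = 0.116).

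Foxc1 and Foxc2 encode closely related forkhead factors that act together in mesenchyme and podocytes, and both are annotated with 1 transcript. Foxc2 (chromosome 8, 121116171 to 121118895) measured 14.7, 12.6 and 12.4 FPKM in knockout libraries, against 7.83, 10.1 and 10.8 FPKM in wild-type libraries. Foxc1 (chromosome 13, 31806633 to 31812476) measured 10.3, 8.20 and 8.32 FPKM in knockout libraries, against 6.07, 6.998 and 7.998 FPKM in wild-type libraries. For both genes knockout library 1 was highest, wild-type library 1 lowest, and the genotypes did not overlap. The log2 change was 0.43 for Foxc2 (SE 0.12, limma adjusted p = 0.176) and 0.31 for Foxc1 (SE 0.12, adjusted p = 0.268). Without wild-type library 3 they were 0.52 and 0.40, with adjusted p of 0.104 and 0.154. The Foxc1 promoter window (chr13:31806396-31806695, plus strand, GRCm38.p6) is shown as that of the forkhead member with a sequence in the table used, and holds none of the 3 motifs.
Foxc1: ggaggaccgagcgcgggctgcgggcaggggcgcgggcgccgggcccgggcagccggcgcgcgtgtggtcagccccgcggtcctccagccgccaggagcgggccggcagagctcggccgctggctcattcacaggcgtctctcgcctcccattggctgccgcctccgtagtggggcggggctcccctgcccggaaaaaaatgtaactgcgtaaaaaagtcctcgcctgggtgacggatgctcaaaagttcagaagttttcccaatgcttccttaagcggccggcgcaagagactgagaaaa

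The remaining genes of the group overlapped between genotypes. Lmx1b, the LIM homeodomain factor mutated in human nail-patella syndrome, measured 3.00, 2.09 and 1.85 FPKM in knockout libraries, against 0.910, 2.39 and 2.07 FPKM in wild-type libraries. Single libraries set its mean on both sides, and its interval, from -0.29 to 0.85 on the log2 scale, was wide. Its log2 change of 0.28 was 0.02 without wild-type library 1. Dach1, a nuclear co-repressor, averaged 30.7 ± 0.537 FPKM in knockout and 29.2 ± 2.15 FPKM in wild-type kidneys (SD, n = 3 each). Tdrd5, a tudor-domain protein known from germ cells, averaged 1.79 ± 0.387 FPKM in knockout and 1.58 ± 0.198 FPKM in wild-type kidneys (SD, n = 3 each). Log2 changes were 0.07 for Dach1 and 0.10 for Tdrd5. Without wild-type library 3 they were 0.0099 for Dach1 and 0.041 for Tdrd5, and without knockout library 1 Tdrd5 was at 0.013.

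Most progenitor, early nephron and ureteric bud markers also lay above 0. All 8 nephron progenitor markers were above 0 (7 with quantile normalization and 6 to 8 with 1 library left out) with 0 called by limma and 2 at an unadjusted p under 0.05 (median log2 change 0.07, and 0.15 without wild-type library 3), and their summed level was 135 to 145 FPKM in knockout and 129 to 134 FPKM in wild-type libraries. Of 7 early nephron markers 6 were above 0 (5 without wild-type library 1), and Wnt4 was called higher (log2 change 0.63, limma adjusted p = 0.0402, called under 6 of 14 alternatives). Leaving out wild-type library 2 or any 1 of the knockout libraries ended this call (adjusted p between 0.139 and 0.166). Of 6 ureteric bud markers, which mark the epithelium that branches into collecting ducts, 5 were above 0 (4 when rescaled to equal sums, or without knockout library 1 or wild-type library 1), with 0 called by limma and 3 higher at p under 0.05 before adjustment. Their median log2 change was 0.18, and their sum was 140 to 146 FPKM in knockout and 120 to 125 FPKM in wild-type libraries, without overlap. The 4 mesothelium markers were above 0 as well (3 without wild-type library 3), with 1 at an unadjusted p under 0.05, their sum being 22.6 to 24.8 FPKM in knockout and 18.6 to 19.8 FPKM in wild-type libraries. At an unadjusted limma p under 0.05, 9.14% of all genes tested were higher in knockout. Among 5 gonad markers, Dmrt1 and Foxl2 were at or near 0 in every library. Only 2 of the 5 passed the filter, and both lay above 0 (1 without knockout library 1 or wild-type library 1 or 2). Their median log2 change was 0.05 (0.12 without wild-type library 3), with 0 called by limma. Of these, 1 was higher in knockout without overlap, against 12.5% of all genes tested. The sum of all 5 was 5.66 to 6.37 FPKM in knockout and 5.28 to 6.40 FPKM in wild-type libraries. Foxc1 and Foxc2 are also mesenchymal genes. The part of these cells in the values of Wt1, Foxc1 and Foxc2 was not tested.

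**Figure D3:**
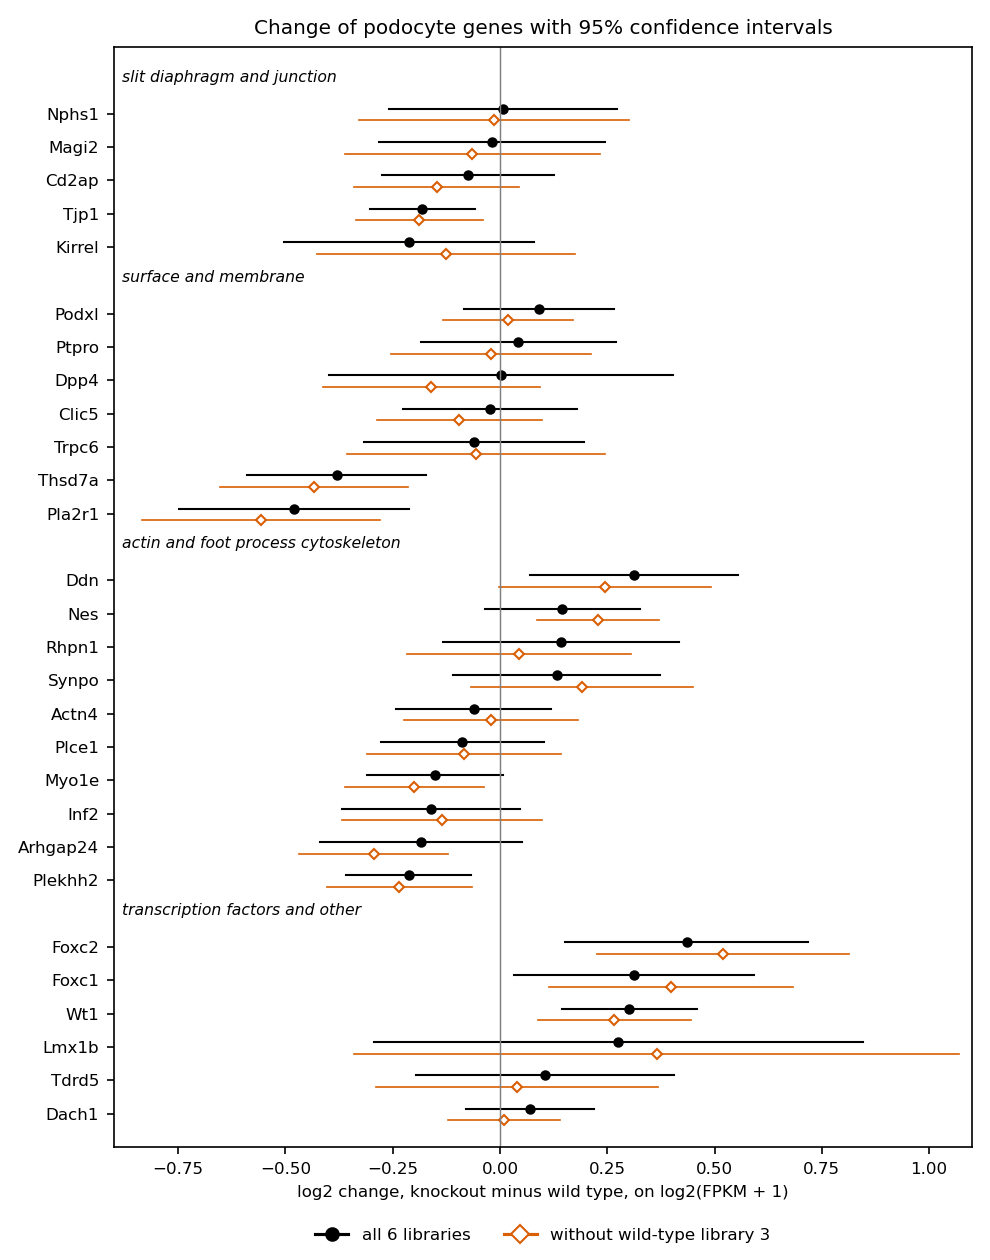
Log2 change of each podocyte gene, knockout minus wild type, on the log2(FPKM + 1) scale with 95% confidence intervals from limma. Black circles use all 6 libraries and open orange diamonds leave out wild-type library 3. The intervals of 20 genes include 0 with all libraries, and Pla2r1 at -0.48 and Foxc2 at 0.43 lie farthest out.

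A narrower set of 10 members, Nphs1, Ptpro, Synpo, Ddn, Rhpn1, Clic5, Lmx1b, Tdrd5, Podxl and Magi2, is known to be largely limited to podocytes within kidney epithelium. Their summed level was 77.7, 68.9 and 66.3 FPKM in knockout libraries 1 to 3, against 69.3, 68.9 and 60.6 FPKM in wild-type libraries 1 to 3. Podxl makes up much of this sum. The groups overlap, with knockout library 1 at the top and wild-type library 3 at the bottom. Knockout library 1 held the highest of the 6 values for 9 of these 10 genes, against 20.5% of all genes tested, and wild-type library 3 the lowest for 6 of them. Of the 10 genes 8 lay above 0 (7 when libraries were rescaled to equal sums, and 6 without knockout library 1 or without wild-type library 3), and the median log2 change of 0.10 was 0.03 without either of those libraries in turn. Library position was taken as the median over genes of log2(FPKM + 1) minus each gene's mean. Knockout libraries 2 and 3 and wild-type libraries 1 and 2 lay between -0.05 and 0.03. Leaving out the highest and lowest libraries of this same list partly builds in this closeness. It cannot show that the genotypes were alike. In the kept libraries Ddn and Synpo were higher in knockout without overlap, and Nphs1, Ptpro, Magi2 and Clic5 lower without overlap. With so few libraries a lack of overlap is common, and its share over all genes was not computed for the kept libraries. Without wild-type library 3 alone it was 39.4% of all genes tested. The other 18 members had a median log2 change of -0.08, with 6 above 0 (5 when rescaled to equal sums), and this median ranged from -0.13 to -0.06 over the alternatives.

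**Figure D4:**
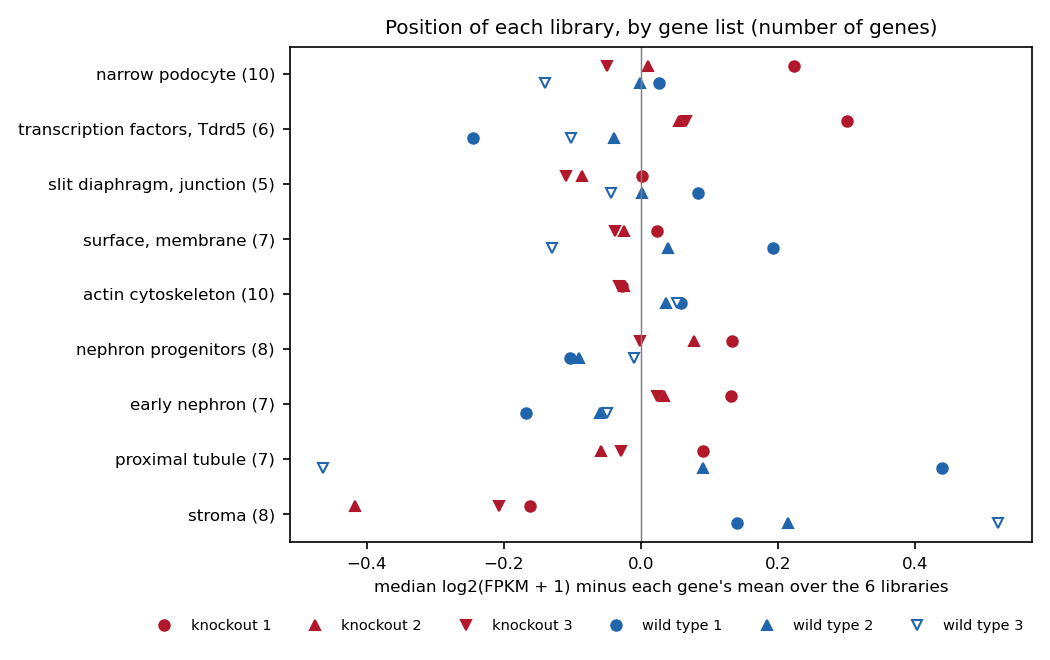
Position of each library for podocyte gene groups and for marker lists of other cells, as the median over genes of log2(FPKM + 1) minus each gene's mean over the 6 libraries. Red symbols are knockout libraries, blue symbols wild-type libraries, wild-type library 3 open. In the narrow podocyte set knockout library 1 lies at 0.22 and wild-type library 3 at -0.14, with the other 4 libraries between -0.05 and 0.03.

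Podocyte genes outside the 28 were examined next. Of 30 further podocyte genes 29 were tested (Kirrel2 fell below the filter) and 0 were called by limma. Without adjustment 7 were higher and 4 lower at a limma p under 0.05, against 9.14% and 6.94% of all genes tested. The genotypes did not overlap for 8 higher and 6 lower genes, against 12.5% and 11.8% of all genes. Both counts make up a larger share than among all genes, a difference that was not tested. The median log2 change was 0.00. Pth1r, the parathyroid hormone receptor, had a log2 change of 0.26 (adjusted p = 0.118). Itgb1, the integrin subunit that anchors foot processes, lay at -0.22 (adjusted p = 0.164).

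Of 14 glomerular basement membrane genes 1 was called. Nid1 encodes nidogen-1, a linker of laminin and collagen IV that stromal cells also secrete. It fell to 27.7, 25.9 and 27.4 FPKM in knockout libraries, against 38.1, 38.0 and 38.5 FPKM in wild-type libraries (log2 change -0.49, SE 0.05, limma adjusted p = 0.00702). That call held without any 1 library. Col4a4, named after its values were seen, a chain of the mature collagen IV network that podocytes make, had a log2 change of -0.31 (adjusted p = 0.288) at 0.680 to 0.901 FPKM in knockout and 0.974 to 1.59 FPKM in wild-type libraries. The list's median log2 change was -0.01, and knockout library 1 held the highest of the 6 values for 10 of its genes. Of 28 other genes mutated in human nephrotic syndromes 0 were called by limma. Without adjustment 2 were higher and 4 lower at a limma p under 0.05 (9.14% and 6.94% of all genes tested), with a median log2 change of -0.02. The smallest p belonged to Daam2, a formin-family regulator of actin (log2 change -0.39, adjusted p = 0.0757), and Tbc1d8b, a regulator of vesicle traffic (log2 change -0.28, adjusted p = 0.184).

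Some markers of the podocyte's glomerular neighbours were called. Among 4 markers used for parietal epithelium, the lining of Bowman's capsule, though other cells transcribe them too, Cldn1 and Akap12 were called lower (log2 change -0.89 and -0.58, limma adjusted p = 0.0176 and 0.0174). Both calls were lost without knockout library 1, 2 or 3 or wild-type library 2 (adjusted p between 0.0658 and 0.0923). Of the 4 markers 1 lay above 0 (2 without knockout library 1 or wild-type library 1 or 2). It was higher at an unadjusted limma p under 0.05 and without overlap. Of 7 mesangial and renin cell markers Akr1b7 was called lower (log2 change -1.49, adjusted p = 0.00480, and called in 14 of 14 alternatives). Of these 7 markers 3 lay above 0 (4 without knockout library 1 or 3) and 4 below, 1 was higher at an unadjusted p under 0.05, and the median log2 change was -0.01. Their summed level, 112 to 122 FPKM in knockout and 134 to 178 FPKM in wild-type libraries, was lower in knockout mainly through Akr1b7 and the renin gene Ren1 (log2 change -2.07, adjusted p = 0.0886, named after its values were seen). Of 10 endothelial markers 0 were called by limma, with 3 higher and 1 lower at p under 0.05 before adjustment, and their sum was 221 to 224 FPKM in knockout and 211 to 222 FPKM in wild-type libraries. At that unadjusted level 9.14% of all genes tested were higher and 6.94% lower.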

How the data were processed

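RNA-seq libraries of whole embryonic kidneys (3 knockout, 3 wild-type) were analysed. The submitters' processing notes name bcl2fastq 2.17.1.14, Salmon and the build GRCm38 (mm10). Annotation release, summing to genes, filters and strandedness are not given there. The deposited table holds FPKM made by the authors for 24749 Ensembl genes. Libraries had an equal median log2 ratio (0.0038) to each gene's geometric mean, so a scaling between them had been applied. No pair of libraries was identical (15 pairs). Symbols matched 24469 genes, and positions come from GENCODE M21 and promoter sequences from RefSeq (GRCm38.p6). FPKM are not counts, so limma 3.58.1 (R 4.3.3, trend, robust) was fitted to log2(FPKM + 1) of 16899 genes averaging 0.5 FPKM or more, with genotype as the only term, and p-values were adjusted by Benjamini-Hochberg over all of them. Fold changes on this scale understate changes of low genes. Depth was approximated from the lowest value steps of single-transcript genes of at least 2000 bases, and depth limits precision for counting error only. Alternatives changed pseudocount, filter, scaling, moderation, replicate block and left out each library.

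The members and gene lists were chosen with earlier results of these data known, so no list was tested or adjusted alone. Members with an unadjusted p under 0.05 or without overlap are given in every library, and from each other list the called genes or the 2 with the smallest p could be named.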

Additional observations from a re-analysis of the deposited data

How the results depend on the processing

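Under all 14 alternatives, counts of called podocyte genes stayed at 0 by limma, and the smallest adjusted p of any member was 0.0839. Of 392 member values (28 genes, 14 alternatives), 376 kept their direction. Changing the filter or the moderation, or adding the replicate block, cannot alter a member's log2 change. Directions under those alternatives were therefore kept by construction. The 16 that turned belong to 7 genes whose main log2 change was at most 0.075 in size. When libraries were rescaled to equal sums Nphs1 was -0.0082 and Dpp4 -0.0156. Leaving out 1 library moved Nphs1 between -0.11 and 0.0788, Cd2ap between -0.15 and 0.0221, Magi2 between -0.11 and 0.0389, Ptpro between -0.0213 and 0.0841, Dpp4 between -0.16 and 0.17, Clic5 between -0.0946 and 0.0334 and Trpc6 between -0.15 and 0.0212. The members' median moved between -0.04 and 0.03. Of all genes tested, 124 were called. Leaving out 1 library, which also leaves fewer samples, gave 52 to 147. Wwtr1 lost its call when rescaled to equal sums (log2 -0.53, adjusted p = 0.0516), and its log2 change lay between -0.55 and -0.46 without 1 library. With replicate number as a block, 32 genes and 0 members were called, Wwtr1 was not (log2 -0.51, adjusted p = 0.108), and Nid1 was not (adjusted p = 0.0787). Deviations of same-numbered libraries correlated at 0.02, -0.04 and 0.05, and 1 of 3 knockout libraries correlated best with its own number. Values this close to 0, from 3 libraries each, cannot decide whether the numbers pair the samples. There are 3 libraries per genotype, and Tdrd5 and Trpc6 rest on the fewest fragments.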
